A study of Mus musculus with 4 samples.

Results

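The S100 calcium-binding genes S100a4, S100a6, S100a8, S100a9, S100a10, S100a11 and S100a13 were read in single-cell RNA-seq of mouse blood mononuclear cells. These members are a fixed list of 7 symbols, found by name among the 32285 genes of the count tables. Blood was taken from the heart of mice of the strains BL/6 and SM/J, at 12 and 20 months of age, in a study of disc herniation and aging in SM/J mice. Mononuclear cells were separated on Lymphoprep, platelets were spun off and red cells lysed, and the cells of both ages of a strain were tagged and run together on the 10x Genomics 3′ platform. This gave 2 expression libraries, 1 per strain, which the deposited files divide by tag into 4 sets of cells: BL/6 at 12 months, BL/6 at 20 months, SM/J at 12 months and SM/J at 20 months. Each set is called a sample here, and values in series below follow this order. Each strain and age is 1 sample, so no difference was tested. The ages of a strain share a 10x run, and the strains do not, so that strain and run cannot be told apart. Each sample held 3 tagged aliquots. The sources do not say whether a tag is an animal, so aliquots show a spread and are not replicates.

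S100 proteins are small EF-hand proteins, mostly dimers, that expose a binding surface when they take up calcium. S100a4 binds nonmuscle myosin and is linked to cell motility, S100a6 (calcyclin) binds annexins and the calcyclin-binding protein, and S100a10 (p11) forms a complex with annexin A2 at membranes without needing calcium. S100a11 also binds annexins, and S100a13 takes part in the release of proteins that lack a signal peptide. S100a8 and S100a9 form calprotectin, the abundant metal-binding complex of neutrophils. In lymphocytes, S100a4, S100a6 and S100a10 are known as genes of antigen-experienced more than of naive cells.

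The genes lie on chromosome 3 (GRCm38, which the submitters' processing notes call mm10; GENCODE vM21 annotation) in 2 groups. S100a13 (chr3:90514435-90524581), S100a4 (chr3:90603771-90606045), S100a6 (chr3:90612882-90624181) and S100a8 (chr3:90668978-90670035) are on the plus strand and S100a9 (chr3:90692632-90695721) is on the minus strand. S100a11 (chr3:93520488-93526287) and S100a10 (chr3:93555080-93564643) follow on the plus strand after a gap of 2825 kb. In this annotation Gm42674, a protein-coding gene on the same strand, overlaps S100a4 over 2115 bases. Its effect on the counts of S100a4 was not tested.

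RefSeq (GRCm38.p6) gave the 250 bases before the transcription start for 6 of the 7 genes. Motif positions count from this RefSeq start, and the windows of S100a6, S100a8 and S100a11 run past the GENCODE starts given above. The sequences of S100a4 and S100a6 are shown because the levels of these neighbours differed together among B and T cells. Those of S100a8 and S100a9 are shown because the balance of the pair differed between cell classes. The windows are chr3:90603520-90603769 (plus), chr3:90612644-90612893 (plus), chr3:90668821-90669070 (plus) and chr3:90695722-90695971 (minus), each written 5′ to 3′ on the gene's strand with motif matches in capitals.
S100a4: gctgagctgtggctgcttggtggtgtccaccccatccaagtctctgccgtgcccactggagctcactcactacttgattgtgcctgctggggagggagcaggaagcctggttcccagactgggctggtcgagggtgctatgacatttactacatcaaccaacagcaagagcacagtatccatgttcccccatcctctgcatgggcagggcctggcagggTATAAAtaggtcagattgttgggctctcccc
S100a6: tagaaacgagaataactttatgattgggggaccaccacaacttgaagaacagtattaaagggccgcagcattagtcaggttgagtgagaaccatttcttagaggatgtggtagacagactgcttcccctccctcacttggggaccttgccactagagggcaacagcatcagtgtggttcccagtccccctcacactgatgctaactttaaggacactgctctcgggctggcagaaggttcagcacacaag
S100a8: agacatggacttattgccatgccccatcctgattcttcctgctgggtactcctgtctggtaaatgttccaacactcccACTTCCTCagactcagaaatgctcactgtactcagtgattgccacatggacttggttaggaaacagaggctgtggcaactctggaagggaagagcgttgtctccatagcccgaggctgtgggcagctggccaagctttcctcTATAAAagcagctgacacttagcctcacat
S100a9: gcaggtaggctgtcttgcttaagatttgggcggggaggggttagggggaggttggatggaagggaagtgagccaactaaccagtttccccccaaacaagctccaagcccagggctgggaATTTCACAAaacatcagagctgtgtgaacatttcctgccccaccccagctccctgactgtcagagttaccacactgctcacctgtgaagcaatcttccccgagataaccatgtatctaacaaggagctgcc

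The motifs were searched on both strands: TATAAA (the TATA box), TGANTCA (an AP-1 site), TTNNGNAAT (a C/EBP site) and GAGGAAGT (an ETS site of the PU.1 type). TATAAA was at -31 to -26 in S100a4 and at -30 to -25 in S100a8. S100a8 also held GAGGAAGT on the other strand at -172 to -165, and S100a9 held TTNNGNAAT on the other strand at -131 to -123. TGANTCA was at -136 to -130 and at -38 to -32 in S100a11, and S100a6 and S100a13 held none of these letters in the window. No match overlapped another. Of 32851 RefSeq windows of this length, 12.4% held TATAAA, 6.75% TGANTCA, 10.2% TTNNGNAAT and 2.44% GAGGAAGT. A match describes the letters only.

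The tables held 3551, 3272, 2580 and 2896 cell barcodes, of which 11596 in all passed the filters, and the median cell of a sample held 4060, 4914, 4729 and 8837 UMIs. Pairs of samples shared 0 to 3 barcodes. Cells were clustered without any S100 gene, and 26 of 27 clusters were named from marker lists. Of the markers, 8 of 9 for B cells, 7 of 8 for T cells, 9 of 9 for NK cells, 5 of 7 for classical monocytes, 9 of 9 for nonclassical monocytes and 11 of 11 for macrophages were the highest of these 6 classes in their own. Orders of levels below are among these 6, and some levels in neutrophil-, basophil-, plasma cell- and platelet-like cells, given later, are higher. Over all samples together, the macrophage-like cells carried Prg4, Timd4 and Gata6, genes known from macrophages of body cavities, and 399 of them were in the SM/J 20-month sample against 30 to 38 in the others. At a resolution of 2 they fell into a cluster with 30, 34, 7 and 30 cells and another with 0, 3, 28 and 369, so that most BL/6 and most SM/J macrophages were in different clusters. Levels are CPM, the UMIs of a gene per 1000000 UMIs of the summed cells of a class in a sample, with exact 95% Poisson intervals. Since 3′ UMIs count each transcript once, they are not scaled by length.

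S100a4 was highest in classical monocyte-like cells, the inflammatory Ccr2-positive monocytes. Its level there was 2821, 3078, 2517 and 2481 CPM, for example 2821 CPM with an interval of 2754 to 2889. In nonclassical monocyte-like cells, the patrolling type, it was 638, 764, 601 and 648 CPM. All samples of the first class lay above all of the second. Macrophage-like cells held 388, 869, 351 and 323 CPM, T cell-like cells 425, 191, 171 and 500.1 CPM and NK cell-like cells 329, 123, 176 and 456 CPM. B cell-like cells ranged most widely, with 65.4, 45.8, 231 and 995 CPM. From nonclassical monocytes downward in this order, neighbouring classes overlapped.

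S100a6 was high in the same monocytes, at 2527, 2739, 2043 and 2243 CPM in classical monocyte-like cells. In B cell-like cells it was 496, 508, 799.7 and 4884 CPM, so that B cells of SM/J at 20 months stood above every classical monocyte sample and those of the other 3 samples below. NK cell-like cells held 1193, 937, 464 and 802 CPM, T cell-like cells 919, 486, 365 and 538 CPM, nonclassical monocyte-like cells 494, 507, 429 and 507 CPM and macrophage-like cells 295, 779.5, 259 and 211 CPM, and these classes overlapped. For shares of cells at equal depth, each cell was thinned to 1000 UMIs, which left out at most 6 cells of a class and sample. S100a4 was then seen in 87.5% to 89.8% of classical monocyte-like cells (98.2% to 100% without thinning) and S100a6 in 81.4% to 90.0% (97.0% to 99.4%).

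S100a10 had another order, led among the 6 classes by NK and T cells. NK cell-like cells held 761, 1187, 1186 and 1750.04 CPM and T cell-like cells 631, 743, 714 and 1034 CPM. Classical monocyte-like cells held 409.7, 811, 611 and 754 CPM, B cell-like cells 301, 507, 702 and 795 CPM and macrophage-like cells 268, 447, 551 and 578 CPM, each overlapping its neighbour in this order. Nonclassical monocyte-like cells lay below all of them, at 20.9, 87.2, 109 and 78.0 CPM, and 1.46% to 8.44% of them held a UMI after thinning (9.62% to 37.7% before). The ratio of classical to nonclassical monocytes was higher for S100a10 than for S100a4 in each sample.

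Among the 6 classes S100a11 was highest in classical monocyte-like cells, at 512, 967, 475 and 608 CPM, above the NK range of 293 to 439 CPM. B cell-like cells held 204 to 454 CPM, T cell-like cells 241 to 388 CPM, macrophage-like cells 137 to 267 CPM and nonclassical monocyte-like cells 133 to 205 CPM, with neighbours overlapping. S100a13 was highest in NK cell-like cells, at 351, 316, 340.4 and 309.9 CPM. These lay above the macrophage range of 118 to 207 CPM, which overlapped the ranges of T cells (119 to 206 CPM) and classical monocytes (129.7 to 163 CPM). B cell-like cells held 63.6 to 175 CPM and nonclassical monocyte-like cells 60.1 to 79.9 CPM of S100a13.

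**Figure D1:**
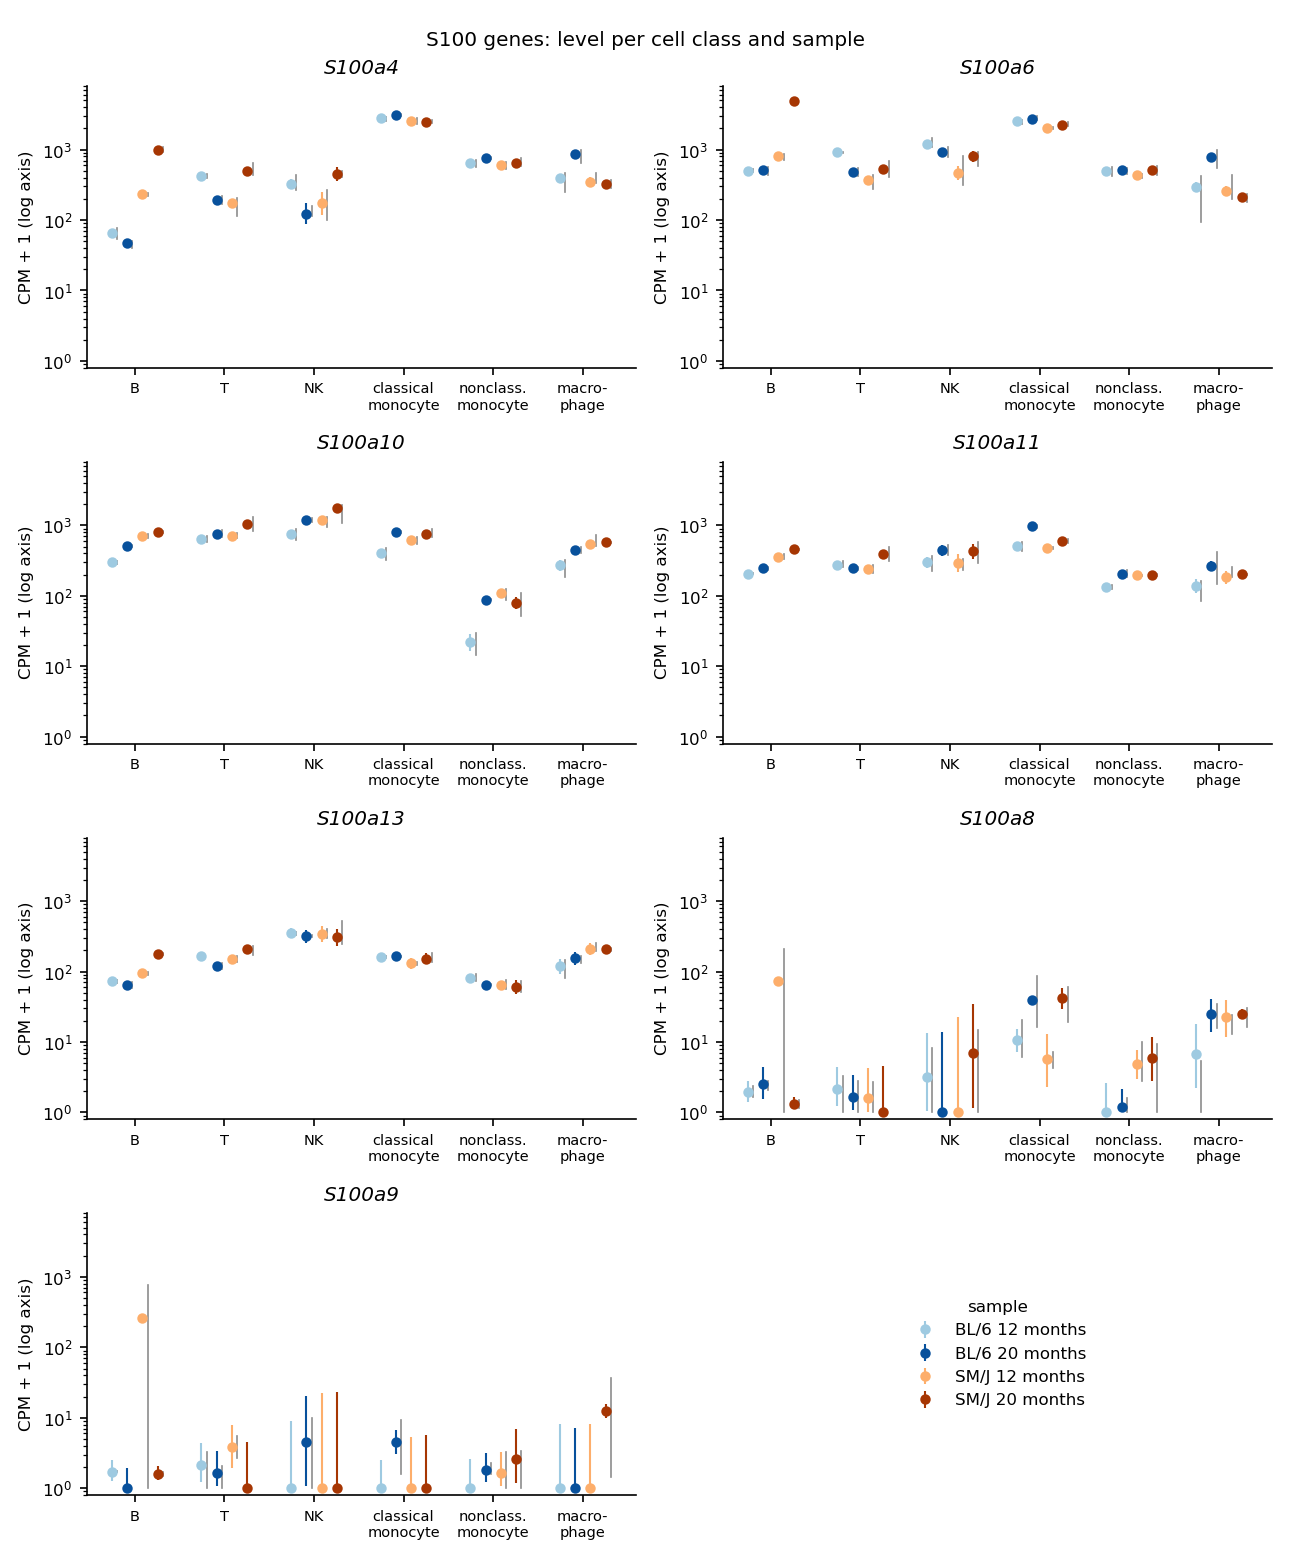
Level of each S100 gene (CPM + 1, log axis) in 6 cell classes of the 4 samples; points are class sums, coloured bars exact 95% Poisson intervals and grey lines the range over the tagged aliquots. S100a4 is highest in classical monocytes (2481 to 3078 CPM), S100a10 is lowest in nonclassical monocytes (20.9 to 109 CPM), and S100a6 reaches 4884 CPM in B cells of SM/J at 20 months.

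Among B cell-like clusters, S100a4 and S100a6 were low where markers of follicular B cells were high. Clusters 0, 1 and 2 had the most of the IgE receptor gene Fcer2a (251 to 323 CPM) and of Ighd (749 to 775 CPM), and with cluster 3 they held 10.8 to 23.2 CPM of S100a4 and 35.2 to 64.4 CPM of S100a6. Cluster 3 had less Fcer2a (79.5 CPM). Cluster 22, from SM/J, held 127 CPM of S100a4 and 639 CPM of S100a6, and cluster 8, nearly all from BL/6, 172 and 1552 CPM. Over all samples together, the levels were highest in 3 clusters mostly from SM/J, at 630.1 and 2243 CPM in cluster 21, 1160.2 and 5423 CPM in cluster 20, and 948 and 6472 CPM in cluster 19. In SM/J at 20 months alone, however, S100a6 in cluster 22 (2708 CPM) was above that in cluster 21 (2236 CPM). After thinning, 97.5% of the cells of cluster 20 and 1.34% of those of cluster 1 held S100a6.

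Cluster 20 had little Fcer2a (1.24 CPM) and Ighd (11.3 CPM). Of the B-1 cell list, Ctla4 (369 CPM), Bhlhe41 (128 CPM) and Zbtb32 (87.1 CPM) were above their levels in clusters 0 to 3, Spn was at 7.92 CPM against 2.58 to 5.68 CPM there, and Cd5 was at 1.24 CPM, below each of them. S100a10 differed less over the B clusters, from 272 CPM in cluster 1 to 885 CPM in cluster 19. S100a11 went from 165 CPM in cluster 1 to 493 CPM in cluster 20 and S100a13 from 54.0 CPM in cluster 0 to 222 CPM in cluster 19. The clusters with the most follicular markers thus held S100a10 and S100a11 with little S100a4 and S100a6.

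Among T cell-like clusters, S100a4 and S100a6 were lowest in the cluster with the most naive markers. Cluster 14, with the most Lef1 (1009 CPM) and Igfbp4 (302 CPM), both genes of naive T cells, held 8.78 CPM of S100a4 and 22.2 CPM of S100a6. Cluster 12, with Cd8b1 (351 CPM), a gene of CD8 T cells, held 25.4 and 459.9 CPM, though the effector genes Ccl5 (3759 CPM) and Nkg7 (522 CPM) were above their levels in cluster 10 (2804 and 336 CPM). Cluster 13, with Cd8b1 (387 CPM) and the most of the effector chemokine gene Ccl5 (9807 CPM), held 712 and 1538 CPM. Of the 8 effector or memory genes listed, 5 were highest in cluster 13, while Gzmk and Cd44 were higher in cluster 10 (76.0 and 329.9 CPM against 44.5 and 239 CPM) and Eomes in clusters 10 and 12 (46.4 and 68.7 CPM against 24.4 CPM). Cluster 10, with the most of the regulatory T cell genes Ikzf2 (439 CPM), Ctla4 (627 CPM) and Foxp3 (24.8 CPM), held 836 and 969 CPM. The fourth gene of that list, Il2ra, was higher in cluster 13 (66.4 CPM) than in cluster 10 (32.9 CPM). Of the 4 clusters, cluster 12 had the highest ratio of S100a6 to S100a4 UMIs. S100a10 went from 254 CPM in cluster 14 to 1562 CPM in cluster 10.

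The naive-type cluster also gives a background for free RNA. S100a4 was seen in 0.956% of its thinned cells (median 4528.5 UMIs before thinning), against 88.7% in classical monocyte cluster 5 (median 8372 UMIs).

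**Figure D2:**
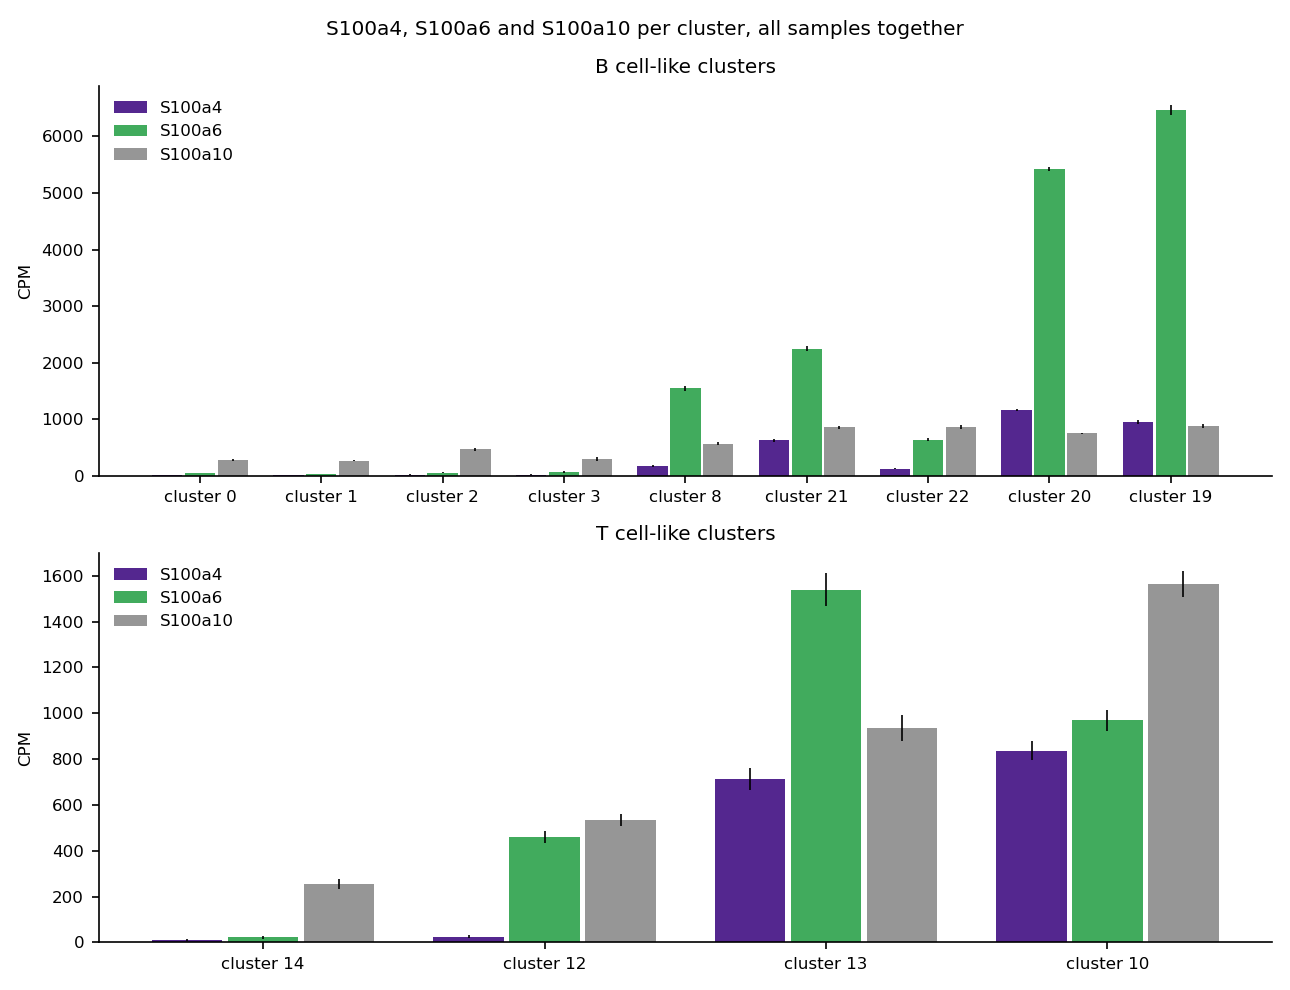
S100a4, S100a6 and S100a10 (CPM, all samples together) in each B and T cell-like cluster; lines are exact 95% Poisson intervals. S100a6 is highest in B clusters 20 (5423 CPM) and 19 (6472 CPM), and S100a4 and S100a6 are lowest among T clusters in cluster 14.

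S100a4 and S100a6 were often found in the same cells. In thinned B cell-like cells, S100a6 was seen in 49.0% against 8.61% of cells with and without S100a4 in BL/6 at 12 months, 56.0% against 8.66% in BL/6 at 20 months, 65.7% against 12.4% in SM/J at 12 months and 93.5% against 57.6% in SM/J at 20 months. In T cell-like cells of BL/6 at 12 months the shares were 71.4% against 32.2%. Differences between clusters enter these values. In nonclassical monocyte-like cells of BL/6 at 12 months, of which 99.4% were in 1 cluster, the shares were closer, at 40.2% against 33.6%.

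Age was compared within each strain as the log2 ratio of CPM + 1 at 20 over 12 months. It was taken for genes with at least 50 UMIs in both samples together and classes with at least 50 cells in each, and a ratio past 1.5-fold counts as higher or lower. The age and strain comparisons share samples. In BL/6, 7 of 26 pairs of member and class were higher at 20 months and 3 lower. By class, 1 of 5 members in B cell-like cells were past 1.5-fold (all genes: 5.6%), 2 of 5 in T cell-like cells (11%), 2 of 5 in NK cell-like cells (12.9%), 3 of 6 in classical monocyte-like cells (10.1%) and 2 of 5 in nonclassical monocyte-like cells (10.8%). The members' median ratios were 0.032, -0.48, -0.15, 0.52 and 0.26, beside 0.046, -0.086, 0.018, 0.016 and 0.038 for all genes tested.

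S100a10, the annexin A2 partner, had an age ratio above 0 in BL/6 in each of these classes, past 1.5-fold in all but T cells. In B cell-like cells it was 301 CPM at 12 months (aliquots 282, 305 and 315) and 507 CPM at 20 months (491, 505 and 519.7), a log2 ratio of 0.75 (0.66 to 0.84). In classical monocyte-like cells it was 409.7 CPM (324, 424 and 478) and 811 CPM (781, 817 and 842), a ratio of 0.98 (0.88 to 1.09). In nonclassical monocyte-like cells it was 20.9 CPM (13.5, 23.4 and 28.2) and 87.2 CPM (85.7, 87.1 and 88.6), a ratio of 2.01 (1.59 to 2.44). In all 3 classes every 20-month aliquot lay above every 12-month one. Aliquots were also apart at some ratios under 1.5-fold, such as S100a13 in BL/6 NK cell-like cells (-0.15). The share of all genes with aliquots apart was not counted, here or in the comparisons below. With classes gated on marker UMIs in place of clusters, the nonclassical ratio was 1.33.

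In NK cell-like cells S100a10 was 761 and 1187 CPM, a log2 ratio of 0.64 (0.42 to 0.86), which fell under 1.5-fold in 7 of 18 alternative settings. In T cell-like cells the ratio was 0.24 (0.14 to 0.33), under 1.5-fold. Inside single clusters of the 6 classes with at least 30 cells at each age, S100a10 was higher at 20 months in 12 of 12 BL/6 clusters, by 0.091 to 2.00 with a median of 0.69, and in 9 of them the interval lay above 0. Outside these classes, in BL/6, the basophil-like cluster held 1101 and 1317 CPM, and the platelet-like cluster held 2107 and 317 CPM, a ratio of -2.73, so that it was lower at 20 months there. T cluster 10 went from 1031 to 1738 CPM and T cluster 12 from 352 to 694 CPM, while T clusters 13 and 14 had ratios of 0.091 and 0.096, with intervals that include 0. In SM/J, S100a10 was higher at 20 months in 6 and lower in 4 of 10 clusters.

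**Figure D3:**
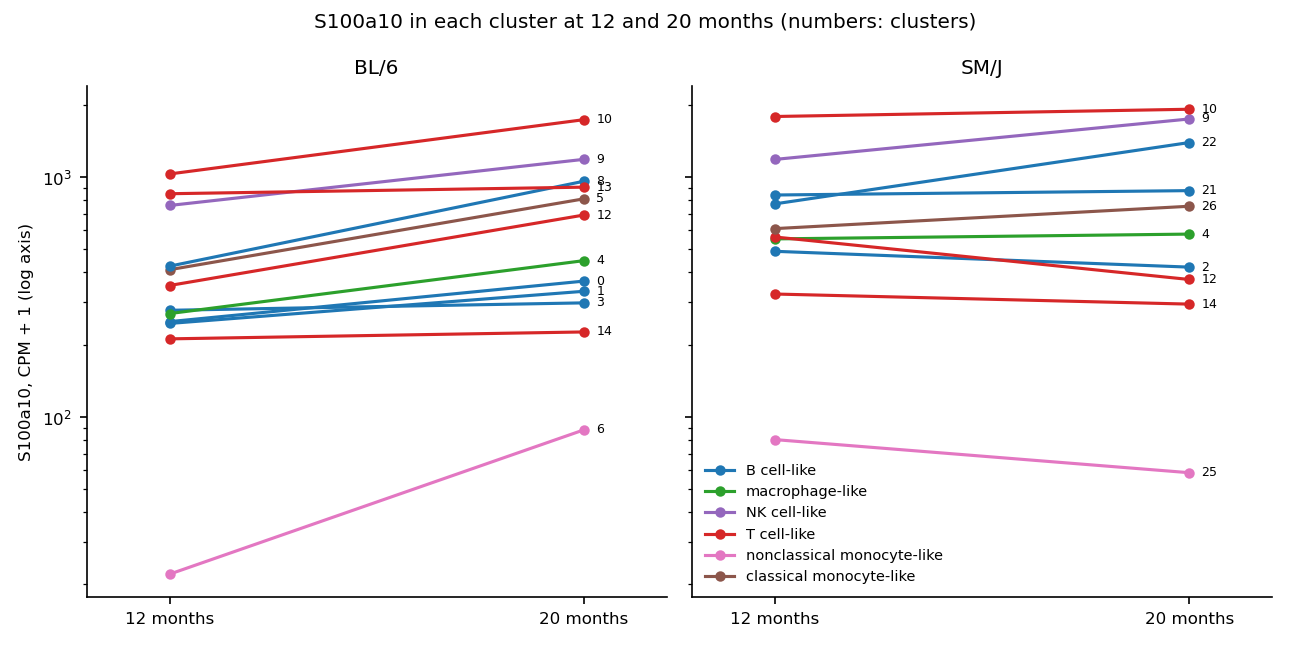
S100a10 (CPM + 1, log axis) in each cluster of the 6 classes with at least 30 cells at 12 and 20 months, for BL/6 and SM/J; lines join the ages of a cluster, numbers name clusters and colours the class. All 12 BL/6 clusters of these classes are higher at 20 months, against 6 of 10 in SM/J.

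S100a11, its neighbour on the chromosome, was higher at 20 months in BL/6 monocytes. In classical monocyte-like cells it was 512 CPM (437, 524 and 575) and 967 CPM (921, 962 and 1023), a log2 ratio of 0.91 (0.82 to 1.01). In nonclassical monocyte-like cells it was 133 and 205 CPM, a ratio of 0.62 (0.43 to 0.80), under 1.5-fold in 5 of 18 alternative settings. Aliquots of the ages did not overlap in either class. Over BL/6 clusters of the 6 classes it was higher in 12 of 12, with 6 intervals above 0, while the basophil-like cluster held 944 and 796 CPM at 12 and 20 months. The third member past 1.5-fold in classical monocytes, S100a8, is described with S100a9. S100a4 and S100a6, the most abundant members in these monocytes, had ratios of 0.13 and 0.12 in the classical and 0.26 and 0.038 in the nonclassical class.

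Macrophage-like cells of BL/6, with 30 cells at 12 and 38 at 20 months, were too few for the counts above. In them S100a4 was 388 and 869 CPM, a log2 ratio of 1.16 (0.92 to 1.40), and S100a6 was 295 and 779.5 CPM, a ratio of 1.40 (1.13 to 1.67). S100a10 was 268 and 447 CPM (0.73) and S100a11 137 and 267 CPM (0.95). In SM/J, with 35 and 399 cells, the ratios of S100a4 and S100a6 were -0.12 and -0.29.

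In BL/6 T cell-like cells S100a4 and S100a6 were lower at 20 months. S100a4 was 425 CPM (399, 421 and 453) and 191 CPM (168, 192 and 218), a log2 ratio of -1.15 (-1.29 to -1.0), and S100a6 was 919 and 486 CPM, a ratio of -0.92 (-1.01 to -0.83). Aliquots of the ages overlapped for neither gene. Cluster 13, with the most Ccl5, made up 35.7% of T cell-like cells at 12 months and 9.26% at 20 months, and the naive-type cluster 14 19.3% and 42.2%. With the mix of clusters held at that of 12 months, the ratios were -0.49 for S100a4 and -0.42 for S100a6, both under 1.5-fold. Inside cluster 13, S100a4 went from 878 to 409 CPM and S100a6 from 1781 to 934 CPM, whereas in cluster 10 S100a4 went from 652 to 749.9 CPM.

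NK cell-like cells of BL/6, all in 1 cluster, also had less S100a4 at 20 months. Its level was 329 CPM (266, 306 and 437) at 12 months and 123 CPM (114, 115 and 156) at 20 months, from 149 and 35 UMIs in 89 and 67 cells, a log2 ratio of -1.41 (-1.98 to -0.88). S100a6 had a ratio of -0.35 (-0.56 to -0.13), with overlapping aliquots.

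In SM/J, 7 of 27 pairs were higher at 20 months and 2 lower. By class, 5 of 7 members in B cell-like cells were past 1.5-fold (all genes: 28.6%), 2 of 5 in T cell-like cells (9.44%), 2 of 5 in NK cell-like cells (14.4%), 0 of 5 in classical monocyte-like cells (13.2%) and 0 of 5 in nonclassical monocyte-like cells (8.78%). The members' medians were 0.35, 0.56, 0.56, 0.22 and 0.020, beside -0.054, 0.080, 0.0027, 0.0080 and -0.026 for all genes. The 2 lower pairs, S100a8 and S100a9 in B cell-like cells, rest on 1 droplet that is described with these genes. In nonclassical monocyte-like cells S100a10, higher with age in BL/6, had a ratio of -0.48 (-0.82 to -0.16) in SM/J, with overlapping aliquots. Its SM/J ratios in B, T, NK and classical monocyte-like cells were 0.18, 0.53, 0.56 and 0.30, each above 0 but under 1.5-fold.

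B cell-like cells of SM/J held far more S100a6 and S100a4 at 20 months. S100a6 was 799.7 CPM (709, 824 and 878) and 4884 CPM (4826, 4902 and 4919), a log2 ratio of 2.61 (2.57 to 2.65). S100a4 was 231 CPM (218, 238 and 244) and 995 CPM (933, 992 and 1072), a ratio of 2.10 (2.03 to 2.18). Every 20-month aliquot lay above every 12-month one. After thinning, the share of cells with S100a6 was 16.7% and 73.5% (32.5% and 82.9% before), and that with S100a4 7.99% and 44.2% (20.6% and 72.8%). S100a13 was 93.7 and 175 CPM, a ratio of 0.90 (0.78 to 1.02), and S100a10 (0.18) and S100a11 (0.35) were under 1.5-fold. In BL/6 B cell-like cells the ratios of S100a6 and S100a4 were 0.032 (-0.046 to 0.11) and -0.50 (-0.75 to -0.26).

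The makeup of SM/J B cells differed with age. Cluster 20 was 1.17% of them at 12 months and 52.7% at 20 months, cluster 2 was 42.4% and 11.4%, and cluster 22 was 31.3% and 4.22%. Without clusters 19 and 20, nearly all of whose cells came from the 20-month sample, the ratios were 1.34 for S100a4, 1.58 for S100a6 and 0.028 for S100a13. Inside cluster 21, S100a6 was 2217 and 2236 CPM, a ratio of 0.012 (-0.049 to 0.073). Inside cluster 22 it was 262 and 2708 CPM, and S100a4 was 91.0 and 323 CPM. The ratio of S100a4 inside cluster 21 was 0.016. Inside cluster 2 the ratios were -0.17 (-1.18 to 0.75) for S100a4 and 0.39 (-0.21 to 0.97) for S100a6.

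S100a4 in T and NK cells of SM/J was higher at 20 months, the opposite of BL/6. In T cell-like cells it was 171 CPM (112, 171 and 206) and 500.1 CPM (436, 461 and 648), a log2 ratio of 1.54 (1.33 to 1.75). In NK cell-like cells it was 176 CPM (100.1, 179 and 267) and 456 CPM (406, 481 and 500.2), a ratio of 1.37 (0.74 to 2.03) from 30 and 75 UMIs. Aliquots of the ages did not overlap in either class of either strain. T cluster 10 made up 22.8% of SM/J T cells at 12 months and 44.2% at 20 months, and the naive-type cluster 14 44.7% and 22.9%. With the mix held, the T cell ratio of S100a4 was 0.42, under 1.5-fold.

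S100a11 in SM/J T cell-like cells was 241 and 388 CPM, a log2 ratio of 0.69 (0.49 to 0.89), and -0.047 with the mix held. S100a6 in SM/J NK cell-like cells was 464 CPM (312, 334 and 799.7) and 802 CPM (577, 758 and 938), a ratio of 0.79 (0.38 to 1.21) with overlapping aliquots. Without aliquot 3 of SM/J at 12 months the latter was 1.43.

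**Figure D4:**
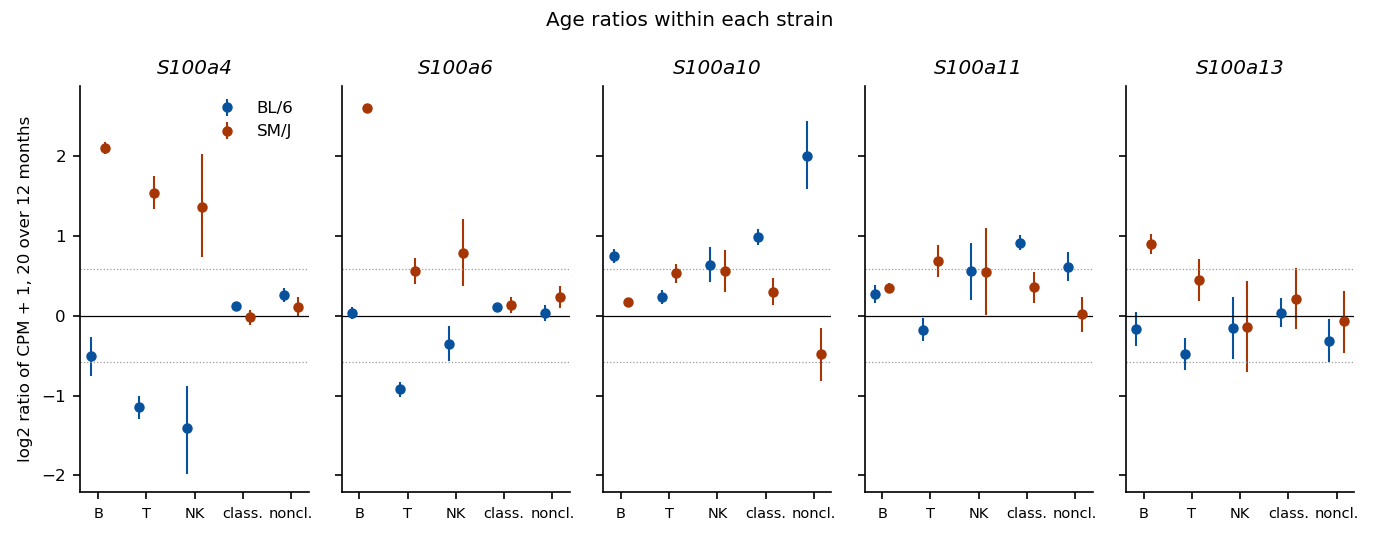
Log2 ratio of CPM + 1 at 20 over 12 months for 5 S100 genes in 5 classes (class. and noncl.: classical and nonclassical monocytes), BL/6 and SM/J, with 95% counting intervals; dotted lines mark 1.5-fold. S100a4 lies on opposite sides of 0 in T cells (-1.15 and 1.54) and NK cells (-1.41 and 1.37), and S100a10 of BL/6 lies above 0 in all 5 classes.

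SM/J was set against BL/6 at each age as the log2 ratio of SM/J over BL/6. At 12 months 8 of 27 pairs were higher in SM/J and 4 lower, with 6 of 7 members past 1.5-fold in B cell-like cells (all genes: 25.7%), 2 of 5 in T (23.5%), 3 of 5 in NK (23.1%), 0 of 5 in classical monocyte-like (21.6%) and 1 of 5 in nonclassical monocyte-like cells (20.7%). At 20 months 9 of 26 were higher and 1 lower, with 5 of 5 in B cell-like cells (51.1%), 3 of 5 in T (18.4%), 1 of 5 in NK (21%), 1 of 6 in classical monocyte-like (22.6%) and 0 of 5 in nonclassical monocyte-like cells (17.9%). S100a8 and S100a9 of the same droplet are 2 of the 6 B cell members at 12 months. Different clusters held most of the B cell-like and of both monocyte-like classes in each strain. NK cell-like cells of all samples were in cluster 9, and T clusters 10, 12 and 14 held many cells of both strains. Most BL/6 B cells fell in clusters 0, 1 and 8, and most of the SM/J ones in clusters 2, 20, 21 and 22. Classical monocytes were mostly of cluster 5 in BL/6 but cluster 26 in SM/J, and nonclassical ones of cluster 6 in BL/6 but cluster 25 in SM/J.

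In B cell-like cells S100a4, S100a6, S100a10 and S100a11 were higher in SM/J at both ages. The ratios at 12 and 20 months were 1.81 (1.67 to 1.95) and 4.41 (4.20 to 4.63) for S100a4 and 0.69 (0.63 to 0.75) and 3.26 (3.20 to 3.33) for S100a6. For S100a10 they were 1.22 and 0.65, and for S100a11 0.80 and 0.88. S100a13 had 0.38 and 1.45 (1.26 to 1.64). Without clusters 19 and 20 the 12-month ratio of S100a6 was 0.42, under 1.5-fold, and the 20-month ratios were 3.43 for S100a4, 2.08 for S100a6 and 0.60 for S100a13. With a mitochondrial limit of 5% the 12-month ratios were 2.96 for S100a4 and 2.30 for S100a6. Scaling by TMM added about 0.30 to all ratios of this class at 20 months. As the tested members were already above 0, this could not change a direction.

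In T cell-like cells S100a4 was lower in SM/J at 12 months, with a ratio of -1.31 (-1.50 to -1.12), and higher at 20 months, with 1.38 (1.21 to 1.55). With the mix of clusters held at that of BL/6 these were -0.83 and 0.55. Cluster 13 made up 35.7% of BL/6 T cell-like cells at 12 months. In SM/J it held only 11 cells at 12 months and 20 at 20 months, under the minimum for ratios inside clusters. The held-mix values at 12 months, here and for S100a6, therefore lean on few SM/J cells. S100a6 had -1.33 (-1.46 to -1.20) at 12 months (-0.45 with the mix held), and S100a11 (0.66) and S100a13 (0.78) were higher in SM/J at 20 months, with 0.13 and 0.49 under the held mix. In NK cell-like cells S100a4 had -0.90 (-1.51 to -0.33) at 12 months, with overlapping aliquots, and 1.88 (1.29 to 2.50) at 20 months. S100a6 had -1.36 (-1.72 to -1.02) at 12 months, and S100a10 0.64 (0.38 to 0.89), under 1.5-fold in 9 of 18 alternative settings. Without aliquot 3 of SM/J at 12 months the NK ratio of S100a6 was -2.0.

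Monocytes differed by strain in 2 pairs. S100a10 in nonclassical monocyte-like cells at 12 months was 109 CPM in SM/J (87.2, 112 and 125) and 20.9 CPM in BL/6, a ratio of 2.33 (1.91 to 2.77), or 0.96 with classes gated on marker UMIs. At 20 months the ratio was -0.16 (-0.49 to 0.16). S100a11 in classical monocyte-like cells was lower in SM/J at 20 months, at 608 against 967 CPM, a ratio of -0.67 (-0.81 to -0.53).

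S100a8 and S100a9 were carried almost entirely by neutrophil-like cells, of which 26 remained after density separation and filtering (4, 11, 0 and 11 per sample). These are few cells, so their levels are a description. In the 3 samples that had them they held 43347, 35762 and 24323 CPM of S100a8 and 63803, 58110 and 51570.2 CPM of S100a9. They carried 96.6%, 87.8% and 88.3% of all S100a8 UMIs of the sample and 99.4%, 98.9% and 95.8% of all S100a9 UMIs. Over all 26 cells S100a6 was 4043 CPM, S100a11 3376 CPM, S100a4 589.7 CPM, S100a10 256 CPM and S100a13 46.6 CPM.

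In SM/J at 12 months 1 droplet of the B cell-like class held 479 of the 485 S100a8 UMIs and 1765 of the 1768 S100a9 UMIs of that class. Among its 4512 UMIs, 0 of 9 B cell markers and 4 of 11 neutrophil markers were seen. The class levels of 72.2 CPM of S100a8 and 263 CPM of S100a9 rest on it, as do the age ratios of -5.81 and -7.35 and the 12-month strain ratios of 5.25 and 7.28. Without its aliquot these were 0.39, 0.40, -0.95 and -0.47, and without the droplet 0 pairs were lower with age in SM/J.

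Outside neutrophils S100a8 was low. B cells, which should lack it, give the background of free RNA, and a share of cells at or below theirs is read as background. B cell-like cells of the other 3 samples held 0.928, 1.57 and 0.307 CPM, T cell-like cells 0 to 1.16 CPM and nonclassical monocyte-like cells 0 to 4.87 CPM. Classical monocyte-like cells held 9.69, 38.4, 4.72 and 41.1 CPM and macrophage-like cells 5.79, 23.6, 21.4 and 23.7 CPM. NK cell-like cells held 0 to 6.08 CPM, from at most 1 UMI. After thinning, S100a8 was seen in 0% to 0.211% of B cell-like cells, where 0 of 1608 thinned cells in SM/J at 20 months allows, at 3 counts and this reduced depth only, a share of up to 0.187% (median 3431.5 to 9621.5 UMIs per sample). It was seen in 0.885% to 4.04% of classical monocyte-like cells (median 6847 to 8584.5 UMIs) and 0% to 5.26% of macrophage-like cells (median 12856 to 16168 UMIs), where 0 of 30 thinned cells in BL/6 at 12 months allows up to 10.0%. Without thinning, where deeper cells show more, the shares were 0.349% to 0.630%, 2.63% to 12.1% and 6.67% to 24.3%. S100a9 was 0, 3.53, 0 and 0 CPM in classical monocyte-like and 0, 0, 0 and 11.5 CPM in macrophage-like cells, and a count of 0, taken as at most 3 UMIs, allows up to 1.26 CPM in the former at BL/6 12 months and 5.79 CPM in the latter at the same age and strain.

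The balance of the pair differed between classes. With the richest cell of each class and sample left out, a step chosen after seeing the data, S100a8 was 40.8%, 37.5% and 31.4% of the UMIs of both genes in neutrophil-like cells. In classical monocyte-like cells it was 100% of 17 UMIs in BL/6 at 12 months, 87.9% (81.1% to 92.9%, exact Clopper-Pearson) of 132 UMIs in BL/6 at 20 months and 100% of 23 UMIs in SM/J at 20 months. In macrophage-like cells it was 100% of 10 UMIs in BL/6 at 20 months, 100% of 9 UMIs in SM/J at 12 months and 95.6% (90.6% to 98.4%) of 135 UMIs in SM/J at 20 months. With all cells, the share was 91.6% in classical monocyte-like cells of BL/6 at 20 months and 67.3% (60.4% to 73.7%) in macrophage-like cells of SM/J at 20 months. Without the richest cell the 6 intervals lay above those of neutrophils, and the lowest of them began at 66.4%. Classical monocytes of SM/J at 12 months and macrophages of BL/6 at 12 months had only 2 and 1 UMIs left.

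**Figure D5:**
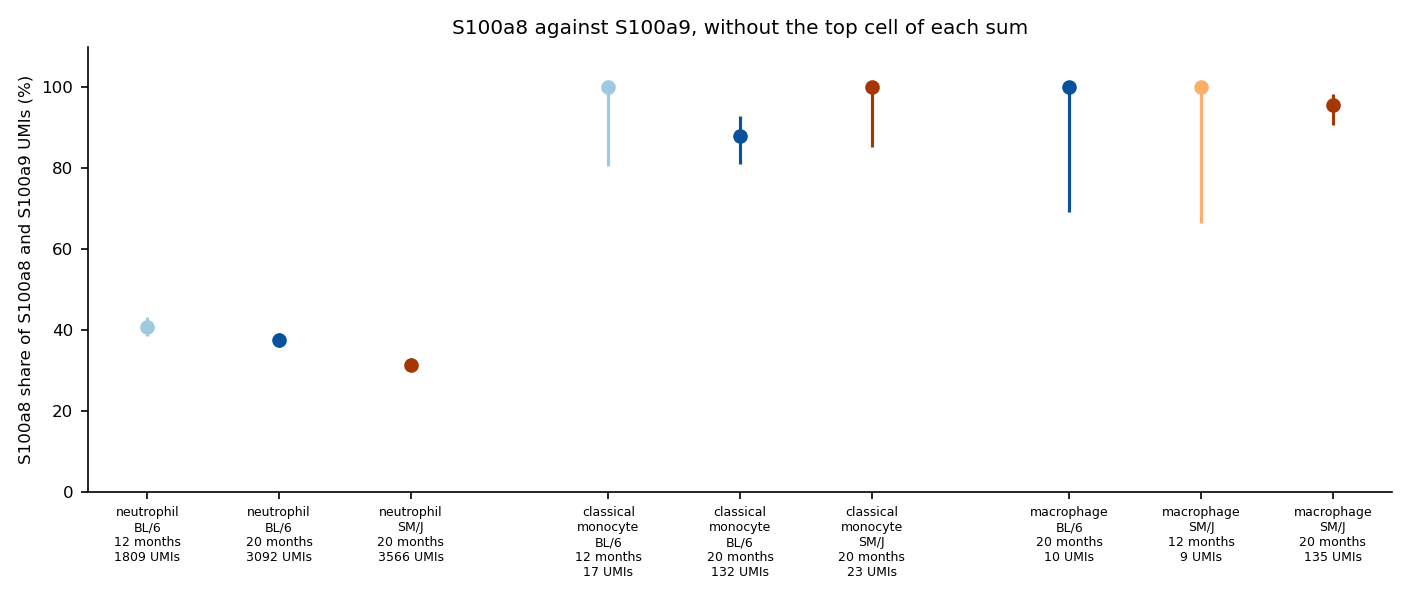
S100a8 as percent of all S100a8 and S100a9 UMIs per class and sample, without the richest cell, for sums of at least 9 UMIs, with exact 95% intervals and the number of UMIs under each point. Neutrophil-like sums lie at 31.4% to 40.8%, monocyte and macrophage sums at 87.9% to 100%, and with all cells macrophages of SM/J at 20 months are at 67.3%.

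A minority of monocytes and macrophages carried S100a8. Of 473 classical monocyte-like cells of BL/6 at 20 months, 36 held S100a8, 5 held S100a9 and 3 held both, and of 399 macrophage-like cells of SM/J at 20 months 97, 7 and 2 did. In the latter 60 of 66 S100a9 UMIs were in 1 cell. The age ratio of S100a8 in BL/6 classical monocyte-like cells was 1.88 (1.30 to 2.51), from 5.21, 5.76 and 19.4 CPM in the 12-month and 15.6, 23.4 and 84.4 CPM in the 20-month aliquots, which overlapped. The BL/6 ratio was 0.91 without aliquot 1 of 20 months and 2.61 without aliquot 3 of 12 months. In SM/J the levels of 4.72 and 41.1 CPM rest on 4 and 33 UMIs, under the minimum of 50, with a ratio of 2.88 (lower bound 1.55) and aliquots that did not overlap. The 11 neutrophil markers summed to 269.9 CPM in the BL/6 cells at 12 months and 406 CPM at 20 months, with 5 and 3 of them at 0, and their part in the result was not tested.

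Of 11 other genes whose symbols start with S100, S100a1 was highest of the 6 classes in macrophage-like cells. These held 75.3, 97.9, 269 and 225 CPM. NK cell-like cells held 39.7, 28.1, 88.0 and 79.0 CPM, and classical monocyte-like cells 45.5, 63.8, 43.6 and 49.9 CPM. In SM/J B cell-like cells S100a1 was higher at 20 months (24.5 against 11.6 CPM, log2 ratio 1.02). So was S100a5 (3.53 against 1.94 CPM, 0.63, aliquots overlapping). S100pbp, a gene of an S100-binding protein, was lower there (14.7 against 27.7 CPM, -0.87). The other 8 stayed at or below 2.91 CPM.

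Among 21 partners and receptors of S100 proteins, 4 pairs of gene and class were higher and 11 lower at 20 months in BL/6 of 73 tested, and 15 higher and 6 lower in SM/J of 64. Of all genes, 5.6% to 12.9% were past 1.5-fold in BL/6 and 8.78% to 28.6% in SM/J, depending on the class. Anxa2, whose product binds S100a10, was higher in BL/6 NK cell-like cells at 706 against 459 CPM, a log2 ratio of 0.62 (0.33 to 0.91), and lower in BL/6 T cell-like cells at 49.4 against 105 CPM, a ratio of -1.07 (-1.36 to -0.78). Its level was 179 to 274 CPM in nonclassical monocyte-like cells, where S100a10 was lowest, and 23.8 to 105 CPM in T cell-like cells. Ahnak, a scaffold protein that binds the complex of both, was lower in BL/6 T cell-like cells (-0.70) and higher in SM/J T (1.02) and NK cell-like cells (1.14), the directions of S100a4.

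Annexins other than Anxa1 were higher at 20 months in SM/J B cell-like cells where they passed 1.5-fold: Anxa2 (163 against 32.3 CPM, 2.30), Anxa5 (202 against 52.6 CPM, 1.92), Anxa4 (30.8 against 8.34 CPM, 1.77), Anxa11 (0.69) and Anxa7 (0.60). Anxa1, whose product binds S100a11, was lower there (5.07 against 12.1 CPM, -1.11), in BL/6 B cell-like cells (-0.65) and in BL/6 T cell-like cells (2.95 against 26.0 CPM, -2.77), and higher in BL/6 classical monocyte-like cells (344 against 213 CPM, 0.69). In BL/6, Anxa5 was lower in B (-0.59) and T cell-like cells (-0.64). In SM/J T cell-like cells Anxa2 was higher (1.45), and in SM/J NK cell-like cells Anxa6 had -0.67 (-1.48 to 0.11), an interval that includes 0. In SM/J classical monocyte-like cells Anxa4 was lower (-1.44) and Anxa7 (0.59) and Anxa11 (0.93) higher, the last 2 with overlapping aliquots. Of the 6 classes Anxa3 was highest in macrophage-like cells, at 197 to 269 CPM.

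Cd36, a scavenger receptor, was highest of the 6 classes in nonclassical monocyte-like cells at 1592, 1039.8, 1206 and 2006 CPM, lower at 20 months in BL/6 (-0.61) and higher in SM/J (0.73). It was higher with age in B cell-like cells of BL/6 (0.67) and SM/J (1.63), and had ratios of -1.39 and 0.60 in classical monocyte-like cells of BL/6 and SM/J, with overlapping aliquots. In SM/J B cell-like cells Bsg, a surface receptor of S100a9, and Ly96, a co-receptor for endotoxin, were higher (0.91 and 1.14), and Emb (-0.95) and Cd69 (-0.76) lower. In BL/6, Ly96 was lower (-0.67) and Emb higher (0.77) in nonclassical monocyte-like cells, and Emb was lower in NK cell-like cells (-0.61, aliquots overlapping), while Sugt1, whose product binds S100a6, had -0.67 (-1.41 to 0.027) there. Cd69 had -0.62 (-1.46 to 0.17) in SM/J nonclassical monocyte-like cells. Myh9, the myosin heavy chain bound by S100a4, was 503 to 622 CPM in nonclassical monocyte-like cells and Cacybp, the calcyclin-binding protein gene, reached 123 CPM in NK cell-like cells of SM/J at 12 months.

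As a description, each member was set against 11276 genes by Pearson r of log2(CPM + 1) over the 33 sums of class and sample with at least 30 cells, which share samples and differ in depth. The genes most like S100a4 were Tnfaip8l2 (0.84), Mrpl33 (0.82) and Ciao2a (0.82), those most like S100a6 Nt5c (0.85), Scand1 (0.84) and Tmem234 (0.83), and those most like S100a11 1600002K03Rik (0.94), Vim (0.93) and Hacd2 (0.92). S100a10 was nearest to Ndufv3 (0.71), Ndufa13 (0.68) and Eva1b (0.66), S100a13 to Atp5j (0.84), Cox7a2 (0.79) and Ndufa4 (0.77) and S100a8 to Lcn2 (0.80), Clmn (0.78) and Itga9 (0.72). Without the S100a9-rich droplet of the B cell-like class, those nearest to S100a8 were Lcn2 (0.86), 9630028H03Rik (0.81) and Bst1 (0.81). With the droplet, those nearest to S100a9 were Iglv2 (0.73), Pigr (0.66) and Ehf (0.63), and without it the highest r was 0.49. Between members, without the droplet, r was 0.83 for S100a6 and S100a11, 0.75 for S100a4 and S100a6, 0.62 for S100a10 and S100a13, and -0.19 for S100a4 and S100a10.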

How the data were processed

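The deposited matrices give UMI counts, not normalized, for each gene in each cell of 4 samples, and the authors made them with Cell Ranger 7.0.1 per the file headers. The submitters' processing notes also name Seurat 4.3.0 and mm10. Barcodes were kept from 500 UMIs and 200 genes upward if mitochondrial UMIs did not exceed 10%, and called doublets (0.775% to 1.34% of cells) were removed. That left 3398, 3102, 2407 and 2689 cells with 17672030, 18780571, 13699495 and 29513219 UMIs. Cells were clustered with scanpy 1.11.5 (2000 variable genes without S100 genes, 30 principal components, Leiden resolution 1) and classes named from marker lists. Counts were summed per class and sample. Levels need 30 cells and class ratios 50 cells per sample, except that neutrophil-like levels are given from 4 to 11 cells. Ratios inside clusters and of macrophage-like cells need 30 cells per sample, and the held mix of T clusters has no such minimum. Ratios carry exact conditional binomial 95% intervals, and all intervals cover counting error only. With 1 sample per group no test was made, and past 1.5-fold is a fixed size, not a test. On simulated counts with known changes (BL/6 at 20 over 12 months, 7135 genes, at reduced depth), 96.2% of 185 changed genes were recovered and 2.86% of unchanged ones were past 1.5-fold. The simulation held counting error only, without spread between cells or aliquots. Some class sums, such as those of NK cell-like cells, held fewer UMIs, so these shares are no error rate for the ratios above.

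All members are named. Other S100 genes and partners are named where past 1.5-fold with age or at 100 CPM or more in a class, and the 3 genes most like each member are named. The members and lists were chosen with earlier results of these data known. Alternatives were other filters, resolutions, scalings (TMM of edgeR 4.0.16), pseudocounts, gated classes and leaving out each aliquot. The clusters, droplet, held mix and richest cell that were left out or fixed were chosen after seeing the data.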

Additional observations from a re-analysis of the deposited data

Results flagged for a closer look

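The age ratio of S100a4 had opposite signs in the 2 strains in T and NK cell-like cells, and the aliquots of the 2 ages did not overlap in either strain. The ratio in SM/J minus that in BL/6 was 2.69 in T cell-like and 2.78 in NK cell-like cells on the log2 scale, and this difference between strains was not tested. With the mix of T cell clusters held at that of 12 months, the T cell ratios were 0.42 in SM/J and -0.49 in BL/6, both under 1.5-fold.

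Cell classes outside the comparisons also held S100 genes. In dendritic cell-like cells S100a4 was 1242 CPM in BL/6 at 20 months, and S100a6 was 1802 CPM in BL/6 at 20 months, 1064 CPM in SM/J at 12 months and 1217 CPM in SM/J at 20 months. In basophil-like cells of BL/6 at 20 months S100a4 was 1175 CPM and S100a6 1055 CPM, and S100a10 was 1101 CPM at 12 and 1317 CPM at 20 months. S100a10 was 2374 CPM in plasma cell-like cells of BL/6 at 20 months. In platelet-like droplets of BL/6 it was 2107 CPM at 12 months, and the log2 ratio of 20 over 12 months was -2.73, opposite in sign to its ratios in the 5 BL/6 classes compared.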

How the results depend on the processing

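No paired analysis was possible because each strain is 1 expression library, each strain and age is 1 part of it, and no result comes from a test. Of 705 values of the 41 ratios past 1.5-fold under settings other than those chosen after seeing the data, 673 kept direction and size class, 28 fell under 1.5-fold and 4 reversed, the S100a8 and S100a9 ratios of B cell-like cells without aliquot 2 of SM/J at 12 months (0.39 and 0.40 for age, -0.95 and -0.47 for strain). Their ranges over left-out aliquots were -6.38 to 0.39 and -7.93 to 0.40 for age and -0.95 to 5.82 and -0.47 to 7.86 for strain. Of the 705 values, the 41 with no minimum of UMIs per gene equal the main ones by construction. A ratio under the minimum of cells or UMIs in a setting has no value there. Of 70 values under settings chosen after seeing the data, 60 kept direction and size class, 9 fell under 1.5-fold and 1 reversed, S100a11 in T cell-like cells with age in SM/J (-0.047 with the mix held). As a mean over cells, S100a6 in B cell-like cells at 20 months by strain was 3.85. Leaving out each aliquot gave 5 to 8 higher and 3 to 4 lower pairs with age in BL/6, 6 to 10 and 0 to 3 in SM/J, 7 to 10 and 4 to 5 by strain at 12 months, and 8 to 10 and 1 to 1 at 20 months. With classes gated on marker UMIs, lower pairs were 5 and 0 with age in BL/6 and SM/J and 7 and 2 by strain at 12 and 20 months, and higher pairs by strain at 12 months were 5. With no minimum of UMIs, lower pairs were 5, 4 and, by strain at 20 months, 6, with more pairs compared. At resolution 0.5, with 15 pairs compared, lower pairs were 0 with age in SM/J and 0 by strain at 20 months, and higher pairs by strain at 12 months 5. A mitochondrial limit of 5% gave 2 lower pairs by strain at 20 months. The T cell mix held gave 1 lower pair with age in BL/6, and leaving out the droplet or the richest cell gave 0 and 1 with age in SM/J. The cause was not tested. Depth limits NK cell ratios, which rest on 30 to 149 UMIs for S100a4.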
